A study of Mus musculus with 31 samples.

Results

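Pax6, Sox1, Nes, Tubb3, Map2, Dcx, Neurog1, Neurog2 and Elavl3 are 9 genes of the neural ectoderm and of the neurons that come from it, and their RNA levels were followed in mouse induced pluripotent stem cells (iPSCs) and in the embryoid bodies grown from them. They are 9 of the 18194 genes measured, named as a list with no threshold on their values, at a time when other results of these data were known. The arrays carry 25 probe sets annotated to one of the 9 symbols alone, and each gene is read from its brightest one, that is, the set whose mean on the 31 arrays is highest. The other 16 probe sets, of 7 genes, are given beside it. Values are log2 intensities summarised by RMA, a method that corrects the background, normalises the arrays and combines the probes of a set.

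The arrays fall into 4 groups by genotype and day. Nos3-/- cells came from mice of strain B6.129P2-Nos3tm1unc/J, in which Nos3, the gene of endothelial nitric oxide synthase, is disrupted, and gave 6 arrays at day 11 and 6 at day 0. Control cells came from wild-type CD1 mice and gave 9 arrays at day 11 and 10 at day 0. All were made from tail-tip fibroblasts of adult males with Sendai virus. Day 11 samples are embryoid bodies, aggregates that formed in microwells and differentiated spontaneously, and day 0 samples are iPSCs on growth-arrested embryonic fibroblasts (feeder cells). Genotype and strain change together here and cannot be told apart. The labels do not say which arrays come from separate clones or cultures, so p-values measure the spread between arrays, which may be technical.

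Neural ectoderm is the layer that forms the nervous system, and cells of embryoid bodies can take this path when signals towards mesoderm and endoderm are weak. Its progenitors carry the transcription factors Sox1 and Pax6 and the intermediate filament Nestin, made by Nes. The proneural factors Neurog1 and Neurog2 then drive progenitors out of division, and young neurons make Tubb3 (a neuronal beta-tubulin), Map2 and Dcx (proteins that bind microtubules) and Elavl3 (a neuronal RNA-binding protein). Nes is also made outside the nervous system, among others by muscle precursors, endothelium and cultured fibroblasts.

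The promoters of the 3 genes on which the results below turn are shown to place the genes on the genome. Nes and Map2 passed the test on the chosen probe set, and Sox1 on its other one. The windows are RefSeq's for build GRCm38.p6, from 250 bases before to 50 bases after the annotated start, all on the plus strand: chr3:87970843-87971142 for Nes, chr1:66175079-66175378 for Map2 and chr8:12395269-12395568 for Sox1. Capitals mark GGGCGG on either strand, the core of a GC box.
Nes: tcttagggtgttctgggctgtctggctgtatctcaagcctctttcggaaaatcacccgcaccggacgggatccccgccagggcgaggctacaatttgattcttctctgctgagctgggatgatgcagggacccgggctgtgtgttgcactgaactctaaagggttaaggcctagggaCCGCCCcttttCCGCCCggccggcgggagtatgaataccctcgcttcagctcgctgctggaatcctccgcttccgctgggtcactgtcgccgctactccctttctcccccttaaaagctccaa
Map2: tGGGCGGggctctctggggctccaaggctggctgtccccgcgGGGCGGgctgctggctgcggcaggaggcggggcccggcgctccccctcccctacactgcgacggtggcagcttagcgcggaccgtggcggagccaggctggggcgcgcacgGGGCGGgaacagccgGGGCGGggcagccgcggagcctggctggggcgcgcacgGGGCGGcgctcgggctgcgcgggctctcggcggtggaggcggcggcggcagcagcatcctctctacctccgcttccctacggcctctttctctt
Sox1: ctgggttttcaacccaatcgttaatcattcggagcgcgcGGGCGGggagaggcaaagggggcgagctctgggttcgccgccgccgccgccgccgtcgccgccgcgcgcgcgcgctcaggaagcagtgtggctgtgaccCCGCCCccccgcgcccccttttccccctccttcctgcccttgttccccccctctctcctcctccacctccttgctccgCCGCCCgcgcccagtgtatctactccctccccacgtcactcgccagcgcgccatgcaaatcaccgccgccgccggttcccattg
GGGCGG occurs at 2 places in the Nes window, 5 in that of Map2 and 3 in that of Sox1. All 9 genes matched a RefSeq window, and Pax6 and Dcx have more than 1, so there are 11. GGGCGG lies in 7 of these 11 windows, and in 35.7% of all 32851 mouse windows of this length. CANNTG, the E-box that proneural proteins can bind, which reads the same on both strands, lies in 3 of the 11, against 72.3% of all windows. ACAAT, a core that Sox proteins can bind, lies on either strand in 5 of the 11, against 31.0% of all windows. An ACAAT match can share letters with a CANNTG match. These counts describe letters in the windows, not binding.

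Over the 31 arrays the medians ran from 6.13 to 6.23, and the correlation of an array with the mean of the rest of its group from 0.9643 to 0.9967. The lowest was Nos3-/- day 11 replicate 3, which stood apart from its group, and values without it are given beside some of the calls and counts that it changes. A count given without such a value can also depend on it. The marker list of pluripotent cells (8 genes, Pou5f1 and Nanog among them) averaged 10.77 in Nos3-/- and 10.17 in control embryoid bodies, and 11.64 in Nos3-/- and 11.16 in control iPSCs. In embryoid bodies 2 of the 8 genes were lower than at day 0 in Nos3-/- (1 without that array) and 4 of the 8 in control (5 without it). Of all genes 18.1% were lower in Nos3-/- and 18.2% in control. Nos3 itself averaged 6.88 ± 0.14 (SD, n = 6) in Nos3-/- and 7.05 ± 0.21 (n = 9) in control embryoid bodies, and 6.98 ± 0.18 (n = 6) in Nos3-/- and 6.65 ± 0.24 (n = 10) in control arrays at day 0. It was thus higher, not lower, in Nos3-/- arrays at day 0 (log2 difference 0.33, SE 0.11, limma adjusted p = 0.0295) and did not pass at day 11 (-0.17, SE 0.11, adjusted p = 0.386). The labels do not say whether its probe set reads the part of the gene that was deleted, so its level is no check of the genotype labels.

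Differentiation and genotype were compared in 5 ways: Nos3-/- against control at each day, embryoid bodies against iPSCs of the same genotype, and whether that change differed between the genotypes. Each was tested with limma over all 18194 genes, and the threshold was an adjusted p (Benjamini-Hochberg) of 0.05. By their chosen probe sets, none of the 9 genes was higher at day 11 than at day 0 in either genotype, where 13.0% of all genes rose in Nos3-/- and 16.0% in control cells. One, Map2, fell with time in Nos3-/-, against 18.1% of all genes, and 2, Nes and Map2, fell in control, against 18.2% of all genes. In embryoid bodies 0 of the 9 differed between the genotypes by limma (1 at an unadjusted p under 0.05), where 9.7% of all genes did, 4.41% higher and 5.29% lower in Nos3-/-. With arrays weighted by limma's estimate of their quality, 4 of the 9 passed there, Sox1, Map2 and Neurog2 lower and Elavl3 higher in Nos3-/-, and 3939 of all 18194 genes did, against 1764 without weights. At day 0, 1 of the 9 was lower in Nos3-/- (Nes) and 0 were higher, against 7.47% and 9.17% of all genes and 16.6% in either direction. In either direction 31.1% of all genes changed with time in Nos3-/- and 34.2% in control. The change with time differed between the genotypes for 0 of the 9 genes (1 at an unadjusted p under 0.05), and for 1.24% of all genes, 0.522% in the positive and 0.715% in the negative direction. Without Nos3-/- day 11 replicate 3, 1 of the 9 passed in embryoid bodies (Map2, lower in Nos3-/-), and 2295 of all genes did. In that fit 2 of the 9 passed at day 0, Nes and Map2 (3557 of all genes). Over time in Nos3-/- 2 passed, Map2 and Sox1 (6092 of all genes). With all arrays, the median log2 change of the 9 was between -0.06 and 0.06 in the 5 comparisons, and that of all genes between -0.06 and 0.01.

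**Figure D1:**
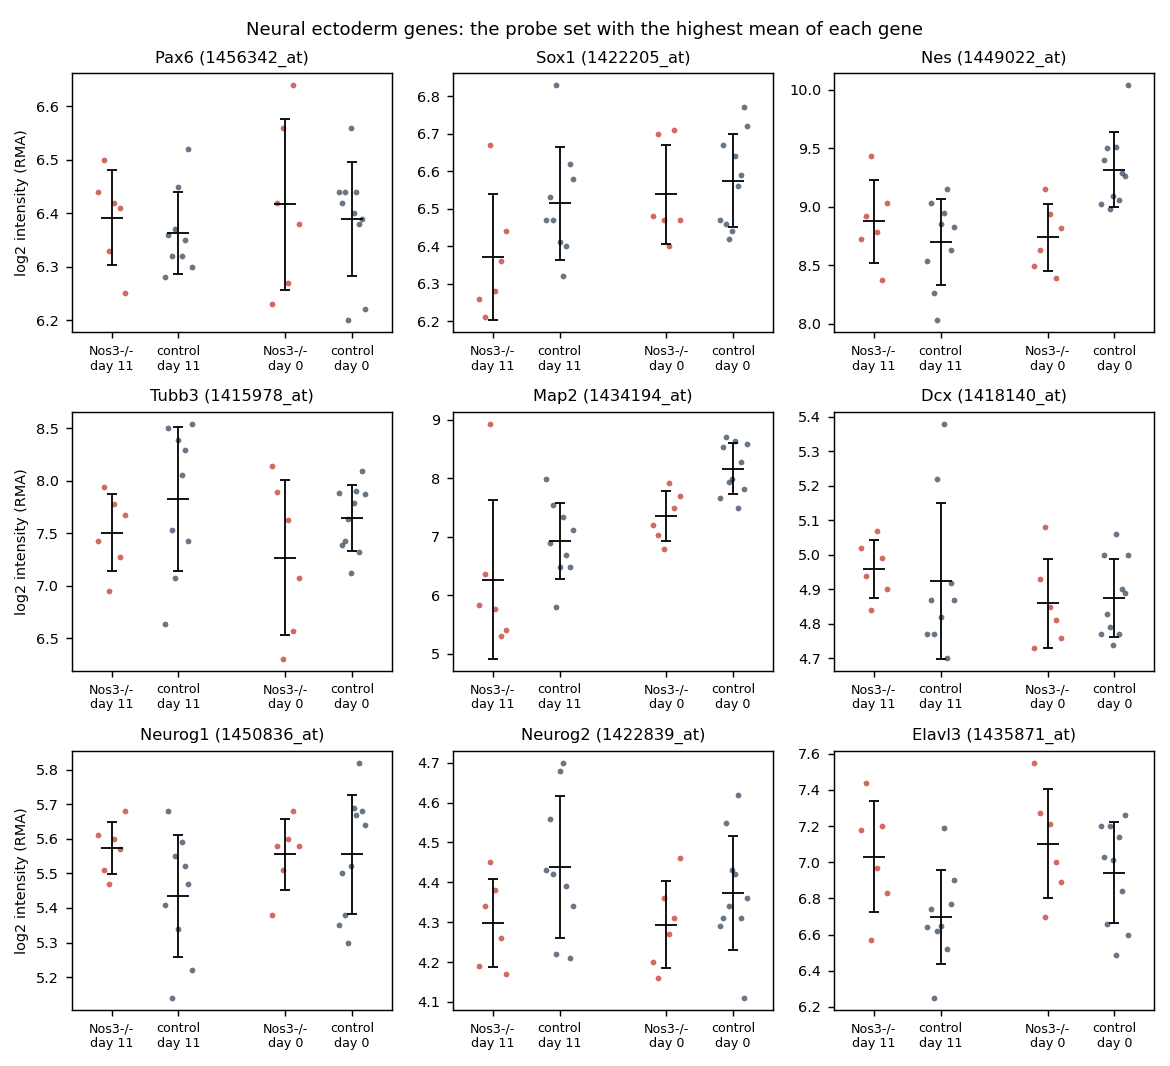
Log2 intensity of the chosen probe set of each of the 9 genes on each array, with Nos3-/- left of control, and day 11 left of day 0, in each panel. Points are arrays, bars the mean ± SD, and each panel has its own axis, so heights are not to be set against each other between genes. Nes is highest on average in control day 0. Map2 has lower means at day 11 than at day 0, with 1 Nos3-/- day 11 array at 8.93 and control day 11 arrays up to 7.98, inside the control day 0 range.

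Among the progenitor genes, Pax6, a paired-box factor of the neural tube and eye, gave nearly the same value everywhere on its chosen probe set (1456342_at). Its mean was 6.39 ± 0.09 (SD, n = 6) in Nos3-/- and 6.36 ± 0.08 (n = 9) in control embryoid bodies, and 6.42 ± 0.16 (n = 6) in Nos3-/- and 6.39 ± 0.11 (n = 10) in control arrays at day 0. The day 11 difference between Nos3-/- and control was 0.03 (SE 0.06, limma adjusted p = 0.868). All 4 groups overlapped, and the order of their means is within the SD of each. Over the 31 arrays the SD of this set was 0.10, at a level near the array medians of 6.13 to 6.23. No call of whether it was detected is given, so its flat values do not show that Pax6 RNA was unchanged.

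A second Pax6 probe set, 1419271_at, gave another picture, in an added fit over all 34958 probe sets with 1 symbol. In control embryoid bodies it read 8.18, 6.99, 6.57, 6.26, 6.12, 5.97, 5.81, 5.76 and 5.38. In control iPSCs it ran from 4.92 through a median of 5.355 to 5.59, so 8 of the 9 embryoid body arrays lay above all 10 iPSC arrays. The rise in control was 1.03 (SE 0.22, limma adjusted p = 0.000555), a 2.05-fold level. Replicate 1, at 8.18, stood highest, and without it the rise was 0.80 (adjusted p = 0.000222). In Nos3-/- the same probe set ran from 5.52 through 5.705 to 6.02 in embryoid bodies, against 5.48, 5.58 and 6.32 (lowest, median, highest) in iPSCs, and its change of 0.07 did not pass (SE 0.28, adjusted p = 0.878). Neither the Nos3-/- minus control difference at day 11 (-0.58, SE 0.26, adjusted p = 0.173) nor the difference between the genotypes in the change (-0.96, SE 0.36, adjusted p = 0.189) passed. The remaining 3 Pax6 probe sets passed in no comparison.

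Sox1, among the first factors of the neural plate, also depended on the probe set. On the chosen one, 1422205_at, the mean was 6.37 ± 0.17 (SD, n = 6) in Nos3-/- and 6.51 ± 0.15 (n = 9) in control embryoid bodies, and 6.54 ± 0.13 (n = 6) in Nos3-/- and 6.57 ± 0.12 (n = 10) in control iPSCs. The difference of -0.14 in embryoid bodies (SE 0.08, limma adjusted p = 0.290) and the changes with time of -0.17 in Nos3-/- (SE 0.09, adjusted p = 0.132) and -0.06 in control (SE 0.07, adjusted p = 0.531) did not pass. Without Nos3-/- day 11 replicate 3, the change with time in Nos3-/- passed (-0.23, adjusted p = 0.0329).

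The other Sox1 probe set, 1438729_at, was the one probe set of the 9 genes with a difference between genotypes in embryoid bodies that passed, among 25, where 9.37% of all probe sets passed. In Nos3-/- embryoid bodies it read 8.37, 7.33, 6.76, 6.75, 6.39 and 5.67, against 7.07, 6.70, 5.61, 5.43, 5.35, 5.35, 4.45, 4.24 and 4.11 in control embryoid bodies. All 6 Nos3-/- arrays lay above 7 of the 9 control arrays, and the ranges overlapped. In iPSCs it ran from 3.89 through 4.405 to 4.53 in Nos3-/- and from 3.71 through 4.25 to 4.50 in control. Every Nos3-/- embryoid body array was above every Nos3-/- iPSC array, while 3 of the 9 control embryoid body arrays lay within the iPSC range. The day 11 difference between Nos3-/- and control was 1.51 (SE 0.35, limma adjusted p = 0.00427), a 2.85-fold level. The rise from day 0 to day 11 was 2.55 in Nos3-/- (SE 0.39, adjusted p = 1.96e-05) and 1.16 in control (SE 0.31, adjusted p = 0.00405). The difference between these rises, 1.40, did not pass (SE 0.49, adjusted p = 0.167). Replicate 3, the highest Nos3-/- array, was also the one that stood apart, and without it the day 11 difference was 1.21 (adjusted p = 0.0169) and the rise in Nos3-/- 2.25 (adjusted p = 4.37e-05). The day 11 differences of the 2 Sox1 probe sets, -0.14 and 1.51, have opposite signs, and the first did not pass. The sources used here do not say which part of the transcript either reads. Over the 31 arrays the SD was 0.15 on the chosen set and 1.22 on 1438729_at, and neither has a call of whether it was detected.

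**Figure D2:**
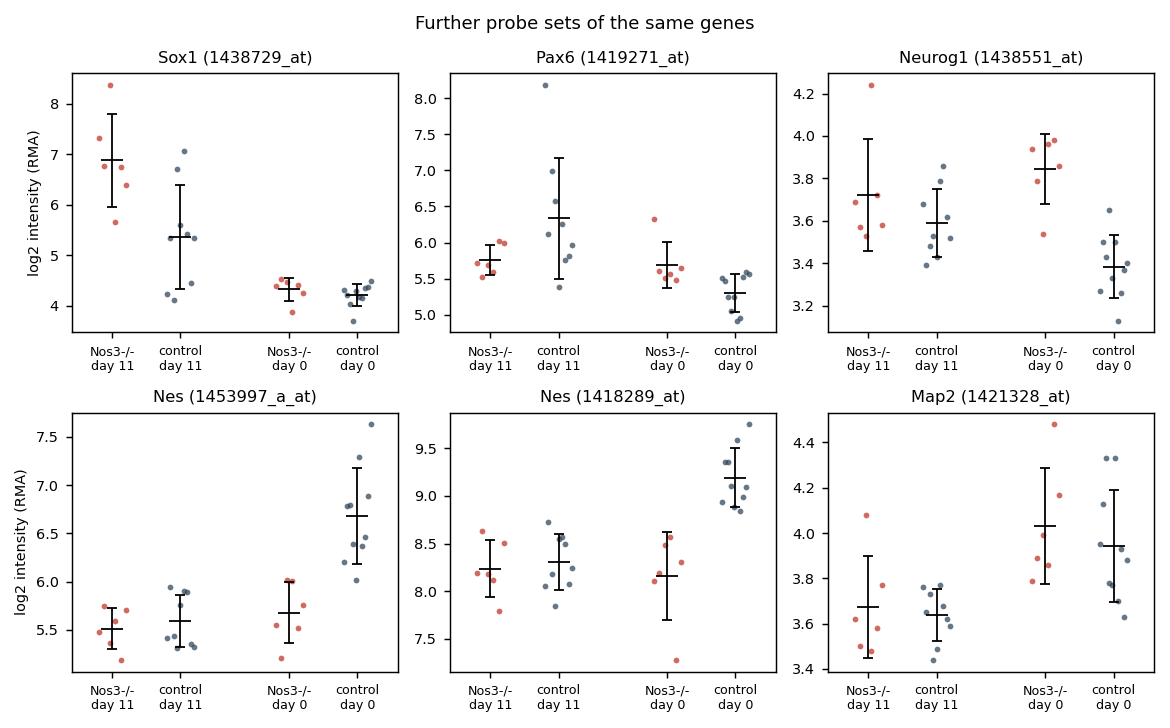
Log2 intensity on each array of 6 further probe sets of Sox1, Pax6, Neurog1, Nes and Map2, with Nos3-/- left of control and day 11 left of day 0. Points are arrays and bars the mean ± SD. The Sox1 set is above its iPSC values in all 6 Nos3-/- embryoid body arrays, the Pax6 set reaches 8.18 in 1 control embryoid body array, and both Nes sets are highest in control day 0.

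These shifts in embryoid bodies came with shifts in markers of other cells. In these bulk samples, fewer cells of a type and less RNA per cell cannot be told apart. In Nos3-/- against control embryoid bodies, 4.41% of all genes were higher and 5.29% lower. Of 8 pluripotent markers 4 were higher and 0 lower there (6 and 0 without Nos3-/- day 11 replicate 3). The mean of this list per array ran from 9.24 to 11.86 in Nos3-/- and from 9.75 to 10.83 in control. Of 7 markers of visceral endoderm (the yolk-sac lineage), 6 were lower and 0 higher, with list means of 5.79 to 7.60 in Nos3-/- and 7.52 to 12.47 in control. Of 9 fibroblast markers 6 were lower and 1 higher, with list means of 8.01 to 9.02 in Nos3-/- and 9.00 to 10.69 in control. Of cardiomyocyte markers, 6 of 8 rose with time in Nos3-/- (7 of 8 without that array) and 8 of 8 in control. Of all genes 13.0% rose in Nos3-/- and 16.0% in control. Their list means in embryoid bodies were 5.64 to 9.72 in Nos3-/- and 7.60 to 10.48 in control, and 1 of 8 was lower in Nos3-/- (0 of 8 without that array). Their part in the values of the 9 genes was not tested. Nos3-/- day 11 replicate 3, with the highest Sox1 (1438729_at) and Map2 values, had the lowest list mean of its group for cardiomyocyte (5.64), visceral endoderm (5.79) and pluripotent markers (9.24). Of the neural lists described below, it was also lowest of its group for progenitor factors (6.32) and neurogenic factors (6.23). For neuronal structure it was highest (7.70).

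**Figure D3:**
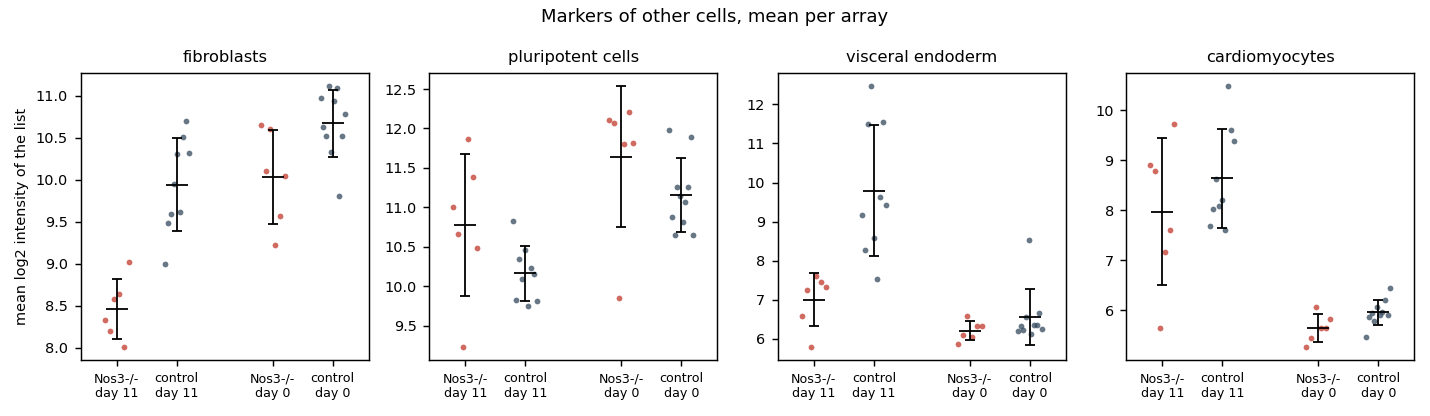
Mean log2 intensity per array of the marker lists of fibroblasts (9 genes), pluripotent cells (8), visceral endoderm (7) and cardiomyocytes (8), with Nos3-/- left of control and day 11 left of day 0. Points are arrays and bars the mean ± SD. Nos3-/- embryoid bodies are lower than control ones for fibroblast and visceral endoderm markers.

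The 3 probe sets of Nes passed in the same comparisons, apart from the difference between the genotypes in the change. On the chosen one, 1449022_at, the lowest, median and highest values were 8.37, 8.85 and 9.43 in Nos3-/- and 8.03, 8.83 and 9.15 in control embryoid bodies. In iPSCs they were 8.39, 8.725 and 9.15 in Nos3-/-, against 8.98, 9.275 and 10.04 in control. Control iPSCs thus had the highest median. Inside their range lay 1 Nos3-/- iPSC array and also embryoid body arrays of both genotypes, up to 9.43 in Nos3-/- and 9.15 in control. The other 3 groups overlapped widely, with means of 8.88 in Nos3-/- and 8.70 in control embryoid bodies and 8.74 in Nos3-/- iPSCs.

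At day 0 Nes was lower in Nos3-/- by a log2 difference of -0.58 (SE 0.17, limma adjusted p = 0.0181), 1.49-fold. Its other probe sets gave -1.03 (1418289_at, SE 0.17, adjusted p = 8.35e-05) and -1.004 (1453997_a_at, SE 0.18, adjusted p = 0.000306). On 1418289_at the groups did not overlap, with 7.28 to 8.57 in Nos3-/- and 8.84 to 9.75 in control, and on 1453997_a_at they met at 6.02. Without Nos3-/- day 0 replicate 5, the chosen probe set did not pass (-0.51, adjusted p = 0.0726), while the other sets passed whichever array was left out, with adjusted p of at most 0.00204.

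Feeder cells were in these cultures. In Nos3-/- iPSCs 2 of 9 fibroblast markers were lower and 0 higher, against 7.47% and 9.17% of all genes. The median difference of the 9 markers was -0.65. The fibroblast list mean per array ran from 9.22 to 10.65 in Nos3-/- and from 9.80 to 11.11 in control iPSCs. In a fit of the 16 iPSC arrays with this list mean as a covariate, chosen after seeing the data, the Nes difference was -0.59 (SE 0.19, limma adjusted p = 0.140). On 1418289_at it was -0.95 (SE 0.22, adjusted p = 0.0320) and on 1453997_a_at -0.98 (SE 0.27, adjusted p = 0.0691). In the same arrays without the covariate, the 3 sets gave -0.58 (SE 0.15), -1.03 (SE 0.18) and -1.004 (SE 0.21), in that order. With the covariate 401 genes passed, against 2504 without it. The list mean was itself lower in Nos3-/- (10.03) than in control iPSCs (10.67), so the fit does not fully separate it from genotype. The part of feeder cells in the Nes difference was not tested.

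From day 0 to day 11, Nes fell in control on all 3 probe sets, by a log2 change of -0.62 on 1449022_at (SE 0.15, limma adjusted p = 0.00172), -0.88 on 1418289_at (SE 0.15, adjusted p = 3.11e-05) and -1.09 on 1453997_a_at (SE 0.16, adjusted p = 4.38e-06). On 1418289_at and 1453997_a_at no control embryoid body array reached the lowest control iPSC array. In Nos3-/- the changes were 0.14 (SE 0.19), 0.08 (SE 0.19) and -0.16 (SE 0.20), and none passed. At day 11 the genotypes differed by 0.18 (SE 0.17), -0.07 (SE 0.17) and -0.08 (SE 0.18), and none of these passed either. The difference between the genotypes in the change was 0.76 on the chosen probe set (SE 0.24, adjusted p = 0.106), 0.93 on 1453997_a_at (SE 0.26, adjusted p = 0.0791) and 0.96 on 1418289_at (SE 0.24, adjusted p = 0.0462). The last passed where 0.867% of all probe sets did, but in only 10 of 31 fits that each left out 1 array.

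Neurog1 and Neurog2, the basic helix-loop-helix factors that commit progenitors to a neuronal fate, passed in no comparison on their chosen probe sets. Neurog1 (1450836_at) averaged 5.57 ± 0.08 (SD, n = 6) in Nos3-/- and 5.44 ± 0.18 (n = 9) in control embryoid bodies, and 5.55 ± 0.10 (n = 6) in Nos3-/- and 5.55 ± 0.17 (n = 10) in control iPSCs. Neurog2 (1422839_at, its sole probe set) averaged 4.30 ± 0.11 in Nos3-/- and 4.44 ± 0.18 in control embryoid bodies, and 4.29 ± 0.11 in Nos3-/- and 4.37 ± 0.14 in control iPSCs. At day 11 the Nos3-/- minus control difference was 0.14 for Neurog1 (SE 0.08, limma adjusted p = 0.341) and -0.14 for Neurog2 (SE 0.08, adjusted p = 0.312). The second Neurog1 probe set, 1438551_at, was higher in Nos3-/- iPSCs, at 3.54, 3.90 and 3.98 (lowest, median, highest) in Nos3-/- against 3.13, 3.385 and 3.65 in control. This difference was 0.46 (SE 0.09, adjusted p = 0.00131), and it passed whichever array was left out. These levels lie near the bottom of the range of the table, whose lowest value is 2.32, and those of Neurog2 lie below the array medians of 6.13 to 6.23. The table holds no call of whether a probe set was detected.

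Among the neuronal genes, Map2 changed most. On its chosen probe set, 1434194_at, Nos3-/- embryoid bodies read 5.31, 5.40, 5.76, 5.83, 6.37 and 8.93, and control embryoid bodies ran from 5.80 through a median of 6.89 to 7.98. In iPSCs the lowest, median and highest values were 6.79, 7.345 and 7.92 in Nos3-/-, against 7.50, 8.125 and 8.71 in control. The value of 8.93, in replicate 3, was above every other of the 31 arrays, and the other 5 Nos3-/- arrays lay below all Nos3-/- iPSC arrays.

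In control, Map2 fell from day 0 to day 11 by a log2 change of -1.24 (SE 0.33, limma adjusted p = 0.00409), 2.36-fold. In Nos3-/- the change was -1.09 (SE 0.41, adjusted p = 0.0452), 2.12-fold, and without replicate 3 it was -1.62 (adjusted p = 0.000143). The call in Nos3-/- was lost in 10 of 31 fits that left out 1 array and under 4 other settings. The difference between the genotypes in the change was 0.15 (SE 0.53, adjusted p = 0.920), and -0.38 without replicate 3 (adjusted p = 0.610).

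The Nos3-/- minus control difference of Map2 passed at neither day, at -0.81 at day 0 (SE 0.37, limma adjusted p = 0.134) and -0.66 at day 11 (SE 0.38, adjusted p = 0.333). Both passed without Nos3-/- day 11 replicate 3, at -0.81 (adjusted p = 0.0232) and -1.19 (adjusted p = 0.00317), the first with an unaltered difference, since that array enters it through the shared estimate of the spread alone. With the fibroblast list mean as a covariate, the day 0 difference was -1.10 (SE 0.23, adjusted p = 0.0154), and -0.81 (SE 0.21, adjusted p = 0.0193) in the same arrays without it. Of its other 3 probe sets, 1421328_at fell with time in both genotypes, by a log2 change of -0.36 in Nos3-/- (SE 0.12, adjusted p = 0.0272) and -0.31 in control (SE 0.10, adjusted p = 0.0150). The call in Nos3-/- was lost in 5 of 31 fits that left out 1 array. Another, 1421327_at, fell in control (-0.19, SE 0.07, adjusted p = 0.0378), a call lost in 10 of 31 such fits, and the difference between the genotypes in this change did not pass. The last, 1440699_at, passed in no comparison. All 3 read low, with group means of at most 4.25 and no call of whether they were detected.

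Tubb3, Dcx and Elavl3 passed in no comparison on their chosen probe sets. Tubb3 (1415978_at, its sole probe set) averaged 7.50 ± 0.36 (SD, n = 6) in Nos3-/- and 7.82 ± 0.69 (n = 9) in control embryoid bodies, and 7.26 ± 0.74 (n = 6) in Nos3-/- and 7.64 ± 0.31 (n = 10) in control iPSCs. Its change with time was 0.24 in Nos3-/- (SE 0.30, limma adjusted p = 0.580) and 0.18 in control (SE 0.24, adjusted p = 0.595). The control embryoid bodies ran from 6.63 to 8.54, a wider range than the gap between any pair of groups.

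Dcx (1418140_at) averaged 4.96 ± 0.08 in Nos3-/- and 4.92 ± 0.23 in control embryoid bodies, and 4.86 ± 0.13 in Nos3-/- and 4.88 ± 0.11 in control iPSCs. None of its 4 probe sets passed in any comparison, and all 4 read low, with group means of at most 4.96 and no call of whether they were detected. Elavl3 (1435871_at) averaged 7.03 ± 0.31 in Nos3-/- and 6.70 ± 0.26 in control embryoid bodies, and 7.10 ± 0.30 in Nos3-/- and 6.94 ± 0.28 in control iPSCs. Its day 11 difference of 0.33 was the one among the 9 with an unadjusted p under 0.05 (SE 0.15, limma adjusted p = 0.163). Another Elavl3 probe set, 1452524_a_at, fell with time in control (-0.31, SE 0.09, adjusted p = 0.00957).

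Counted over all 25 probe sets of the 9 genes, 1 was higher and 3 lower in Nos3-/- at day 0, against 14.0% of all probe sets passing in either direction. With time, 1 rose and 2 fell in Nos3-/-, against 29.4%, and 2 rose and 7 fell in control, against 33.9%. Probe sets of 1 gene read the same RNA and are not separate evidence.

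**Figure D4:**
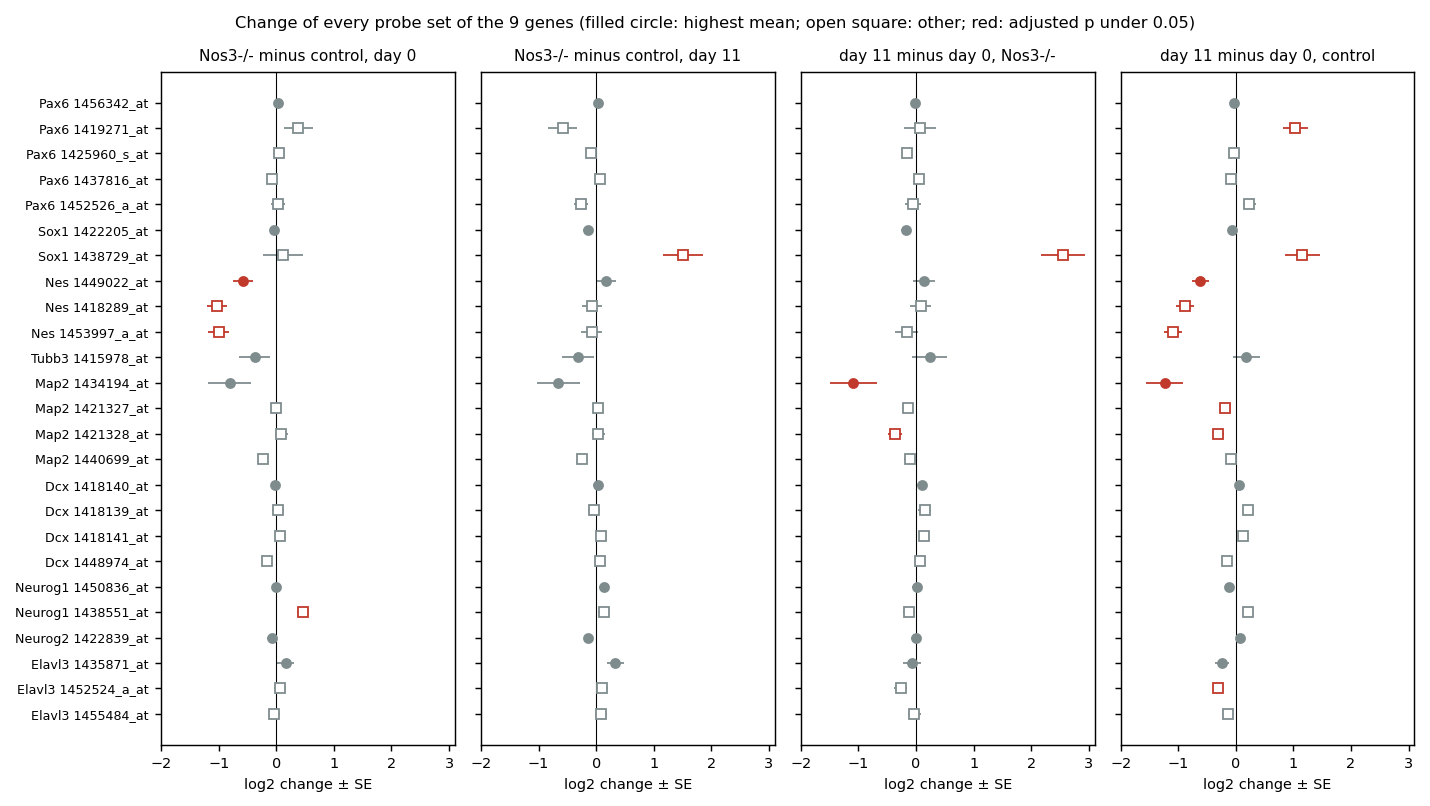
Log2 change ± SE of each of the 25 probe sets in 4 comparisons, from the fit over all probe sets. Filled circles are the probe sets with the highest mean of each gene, open squares the others, and red marks an adjusted p under 0.05. All 3 Nes sets lie left of 0 at day 0 and over time in control, and 1 of the 2 Sox1 sets lies right of 0 at day 11 and over time in both genotypes.

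Other genes of neural differentiation were read from 5 lists, of which 114 of 120 entries were analysed. In control cells more genes of neuronal structure (cytoskeleton, adhesion and synapse) fell than rose with time. Of the 34 measured, 15 were lower, 4 higher and 15 did not pass at day 11, against 18.2% lower and 16.0% higher of all genes. The median change was -0.32, against -0.03 over all genes. In the same comparison 7 of 7 visceral endoderm markers rose, with a median of 3.55. The 3 control embryoid body arrays with the highest visceral endoderm means, 12.47, 11.55 and 11.49, had neuronal structure means of 7.225, 7.12 and 6.98, where the 9 arrays ran from 6.98 to 7.70. Control replicate 1, with a lower visceral endoderm mean of 9.18, also had a low neuronal structure mean, 7.17. The part of visceral endoderm in these values was not tested. Nefl and Nefm, subunits of neurofilaments, fell by 2.78 (SE 0.49, limma adjusted p = 4.44e-05) and 1.37 (SE 0.34, adjusted p = 0.00191), and Chga, a protein of secretory granules, by 1.73. Prph, a filament of peripheral neurons, rose by 1.02, Elavl4 by 0.72 and Map1b, a microtubule-associated protein, by 0.66.

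In Nos3-/- cells 4 genes of the neuronal structure list rose with time and 1 fell, against 13.0% and 18.1% of all genes, with a median of 0.04. Without Nos3-/- day 11 replicate 3, 5 rose and 0 fell, with a median of -0.01. Prph (1.05), Map1b (1.04) and the splicing factor Nova1 (0.80) were among those that rose, and the filament gene Ina (-0.94) fell, though not without Nos3-/- day 11 replicate 3 (-0.73, adjusted p = 0.0955). The change itself differed between the genotypes for Dpysl3 (1.31, SE 0.32, limma adjusted p = 0.0351) and Crmp1 (1.25, SE 0.31, adjusted p = 0.0424), which encode related proteins of growth cones. Dpysl3 averaged 10.20 in Nos3-/- and 9.89 in control embryoid bodies, and 10.11 in Nos3-/- and 11.11 in control iPSCs. Crmp1 averaged 8.76 in Nos3-/- and 8.34 in control embryoid bodies, and 8.01 in Nos3-/- and 8.83 in control iPSCs. In both, as in Nes, control iPSCs had the highest mean of the 4 groups.

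Between embryoid bodies of the 2 genotypes, 4 of the 34 genes were higher in Nos3-/- and 0 lower, against 4.41% and 5.29% of all genes, with a median of 0.20 against 0.00 over all genes. Nefl averaged 9.98 in Nos3-/- and 7.87 in control embryoid bodies, a difference of 2.11 (SE 0.56, limma adjusted p = 0.0124). Stmn2, which regulates microtubules in growing axons, averaged 11.82 in Nos3-/- and 10.65 in control (1.17, SE 0.23, adjusted p = 0.00088), and Ina 7.79 in Nos3-/- and 6.69 in control (1.10, SE 0.31, adjusted p = 0.0204). Stmn2 and Ina were high in iPSCs too, at 12.08 and 8.73 in Nos3-/- and 11.46 and 7.71 in control. The higher Nefl, Stmn2 and Ina passed also without Nos3-/- day 11 replicate 3, where 5 of the 34 were higher and 0 lower.

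Of 27 neural progenitor factors, 3 were higher and 0 lower in Nos3-/- embryoid bodies, against 4.41% and 5.29% of all genes. Sox2, shared by neural progenitors and pluripotent cells, was higher by 1.20 (SE 0.33, limma adjusted p = 0.0153), Zic2, a zinc-finger factor of the neural plate, by 1.05 (SE 0.28, adjusted p = 0.0137) and Dach1 by 0.28. Sox2 was 11.71 in Nos3-/- and 10.51 in control embryoid bodies, and 11.92 in Nos3-/- and 10.89 in control iPSCs, where it was also higher (1.03, adjusted p = 0.0264). With time 6 of the 27 rose and 2 fell in Nos3-/-, where 31.1% of all genes changed, and 3 rose and 6 fell in control, where 34.2% did. Fabp7, a lipid-binding protein of radial glia, rose by 1.57 in Nos3-/- and 0.97 in control, and Lhx2, a factor of the forebrain and eye field, by 1.39 in Nos3-/- and 1.47 in control. Emx2, a forebrain factor, fell by 0.99 in Nos3-/- and 1.53 in control. Otx2, of forebrain and epiblast, fell in control (-1.73, adjusted p = 0.000618) and had a change of -0.08 in Nos3-/- (adjusted p = 0.918), with a difference between these of 1.65 that did not pass (adjusted p = 0.161).

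Of 25 neurogenic factors, 4 were higher and 1 lower in Nos3-/- embryoid bodies, against the same 4.41% and 5.29% of all genes. Without Nos3-/- day 11 replicate 3, 2 were higher and 1 lower. Olig2, a factor of oligodendrocyte and motor neuron progenitors, averaged 5.58 in Nos3-/- and 3.25 in control embryoid bodies (2.33, SE 0.49, limma adjusted p = 0.00149). It averaged 6.76 in Nos3-/- and 3.18 in control iPSCs (3.58, adjusted p = 4.37e-06). Its relative Olig1, counted among 13 genes of neural crest and glia, averaged 10.02 in Nos3-/- and 5.22 in control embryoid bodies, a difference of 4.80 (SE 0.23, adjusted p = 2.06e-15). In iPSCs Olig1 averaged 10.49 in Nos3-/- and 4.85 in control, so this difference was already present before differentiation. Sox11, a factor of young neurons, rose with time in both genotypes, by 1.66 in Nos3-/- and 1.24 in control.

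In the crest and glia list, Foxd3, a factor of pluripotent cells and early crest, was higher in Nos3-/- embryoid bodies (0.95, SE 0.20, limma adjusted p = 0.00119), and Ednrb, an endothelin receptor of crest and other cells, was lower (-1.82, SE 0.44, adjusted p = 0.00579). The 15 repressors of neurogenesis, REST with its cofactors and the Id and Hes families, rose with time more often than they fell: 5 rose and 1 fell in Nos3-/-, and 8 rose and 2 fell in control, with medians of 0.26 and 0.35, against 31.1% and 34.2% of all genes changing in either direction. Id1 and Id2, which block basic helix-loop-helix factors, rose by 1.52 and 1.43 in Nos3-/- and by 1.10 and 2.24 in control. Without Nos3-/- day 11 replicate 3, 8 rose and 1 fell in Nos3-/-. Rest had changes of -0.10 in Nos3-/- (adjusted p = 0.720) and -0.23 in control (adjusted p = 0.230), which did not pass.

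At day 0 the counts of these 3 lists lay near the 16.6% of all genes that passed. Nos3-/- iPSCs had 2 of 27 progenitor factors higher and 3 lower, 2 of 25 neurogenic factors higher and 2 lower, and 1 of 34 neuronal structure genes higher and 4 lower. Without Nos3-/- day 11 replicate 3, which enters here through the spread alone, 2 of the 34 were higher and 6 lower. Nefm (-1.22), Dpysl3 (-0.997) and Crmp1 (-0.82) were lower in Nos3-/-, as were the adhesion molecule Cdh2 (-1.32), Sox11 (-0.88) and Sox4 (-0.64). En2, a midbrain factor, was higher in Nos3-/- iPSCs (1.02, SE 0.18, limma adjusted p = 0.000334) and lost this lead with time, with a difference in change of -1.20 (SE 0.26, adjusted p = 0.0197).

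**Figure D5:**
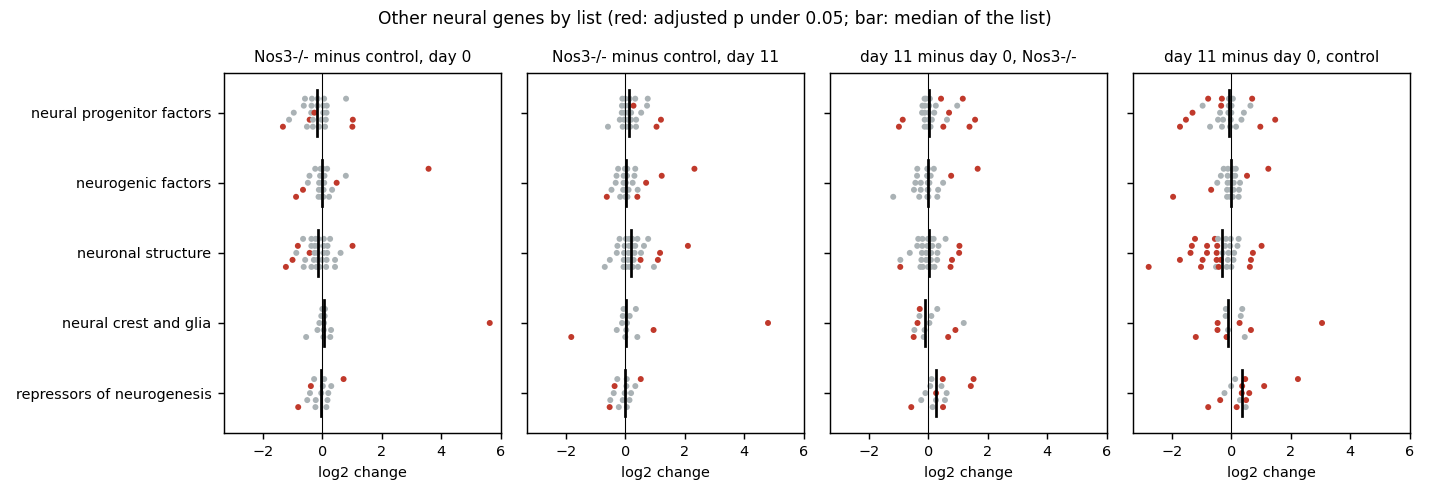
Log2 change of each measured gene of the 5 neural lists (27 progenitor, 25 neurogenic, 34 neuronal structure, 13 crest and glia genes and 15 repressors) in 4 comparisons. Each point is a gene, red where the adjusted p was under 0.05, and the black bar is the median of the list. The neuronal structure list lies to the left over time in control, and Olig1 is the point farthest to the right at both days.

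How the 9 genes vary among embryoid bodies of 1 genotype was tested on the 36 pairs of their chosen probe sets, with exact two-sided permutation tests of Pearson's r and Spearman's rho. No pair passed after Benjamini-Hochberg adjustment over the 36, either among the 6 Nos3-/- or the 9 control arrays, and 3 pairs in each had an unadjusted p under 0.05 for r. By Pearson's r the strongest in Nos3-/- was Sox1 with Elavl3 (r = -0.89, exact permutation p = 0.0181, adjusted p = 0.286, rho = -0.83, exact permutation p = 0.0583), and by rho it was Pax6 with Sox1 (rho = -0.94, exact permutation p = 0.0167, adjusted p = 0.600). In control it was by r Sox1 with Neurog2 (r = -0.78, exact permutation p = 0.00998, adjusted p = 0.359, rho = -0.76, exact permutation p = 0.0213) and by rho Pax6 with Map2 (rho = -0.86, exact permutation p = 0.00446, adjusted p = 0.161). Without the 2 arrays farthest from the median of Sox1, r was -0.46 for Sox1 with Elavl3 in Nos3-/- (4 arrays) and -0.62 for Sox1 with Neurog2 in control (7 arrays). With each gene read as the mean of its probe sets, Sox1 with Elavl3 kept its sign in Nos3-/- (r = -0.565). The other named pairs changed sign. They were Pax6 with Sox1 in Nos3-/- (rho = 0.71), and in control Pax6 with Map2 (rho = 0.60) and Sox1 with Neurog2 (r = 0.19). The median r over the pairs was -0.22 in Nos3-/- and 0.07 in control. For rho the smallest p these tests can give is 0.00278 with 6 arrays. A single pair could thus not pass there by rho after adjustment over 36, while r can give a smaller p.

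The genes most like each member over the 15 embryoid body arrays, each array taken minus the mean of its genotype, are given as a description with Pearson's r. For Nes they were Vcl (0.93), Trim29 (0.90) and Lhfp (0.86), and for Tubb3 Ric8b (0.93), Tigd3 (0.92) and Ppp1r18 (0.92). For Map2 they were Uba6, Il7 and Nipbl (all 0.97), with 1 of the 15 arrays at 8.93, and without that array r was 0.90, 0.925 and 0.90 over 14. The Sox1 probe set that was higher in Nos3-/- was most like Cacna2d3 (0.87), Zfp60 (0.87) and Lpar6 (0.85), and the Pax6 probe set that rose in control most like H2-Aa (0.94), Sox30 (0.92) and Rasal1 (0.92). The arrays share their normalisation. Each of these genes was picked as among the highest of the 18194 genes, once symbols of predicted genes and clones were left out.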

How the data were processed

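RNA was read on 31 Affymetrix arrays, 1 per sample. The authors summarised them with RMA, per the submitters' processing notes, and the deposited values are log2 intensities from 2.32 to 15.01. Software version, genome build, batch and scan date are not given in the sources used here. Gene names come from the platform's annotation: 34958 of 45101 probe sets carry 1 symbol (34754 of them found in a gene table of GRCm38.p6), 932 several and 9211 none. For each of 18194 genes the brightest probe set on average was kept.

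A linear model with a mean per group was fitted to all arrays with limma 3.58.1 (R 4.3.3), with no pseudocount or filter, with 27 residual and 2.80 prior degrees of freedom, and p-values were adjusted over all genes. The fit was tested on simulated data. No 2 arrays were identical (highest r 0.9971). The number of arrays limits the precision.

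The 9 genes and all lists were chosen with earlier results of these data known. Names from a neural list are limited, in each comparison, to 3 passing genes at each end and 2 not passing, and for each of the 9 genes the 3 most alike. Some list entries are not reported here. Alternatives covered normalisation, probe sets, low levels, variance model, array weights, samples, replicate numbers and single arrays.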

Additional observations from a re-analysis of the deposited data

Results flagged for a closer look

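Of 100 groups of arrays of 1 probe set, 9 held an array far from the others, where chance gives about 1 in 20. Map2 (1434194_at) stood at 8.93 in Nos3-/- day 11 replicate 3, and so did Dcx (1448974_at) at 4.70 in the same array. Nes stood apart at 7.28 (1418289_at) in Nos3-/- day 0 replicate 5 and at 10.04 (1449022_at) in control day 0 replicate 10. Pax6 did so at 6.32 (1419271_at) in Nos3-/- day 0 replicate 1 and at 4.66 (1452526_a_at) in control day 11 replicate 1. Single arrays also stood apart for Neurog1 (1438551_at, 4.24 in Nos3-/- day 11 replicate 4), Elavl3 (1452524_a_at, 6.17 in control day 11 replicate 6) and Dcx (1448974_at, 4.82 in control day 0 replicate 6). The change of Nes (1418289_at) from day 0 to day 11 differed between Nos3-/- and control by 0.963 on the log2 scale (limma adjusted p = 0.0462).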

How the results depend on the processing

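The count of the 9 genes that passed was unmoved in 170 of 205 fits under other settings over the 5 comparisons. At day 0 it was 1 between Nos3-/- and control, 2 with the mean of all probe sets, with array weights, with the groups' own arrays alone and with the probe set of highest SD (an alternative chosen after seeing the data, as were the fit of every probe set and the fibroblast covariate), 0 with the replicate number as a block, and 0 to 2 with single arrays left out. At day 11 it was 0, 1 with the mean of probe sets and with the highest SD, 4 with array weights (Sox1, Map2 and Neurog2 lower, Elavl3 higher) and 0 to 1 with single arrays left out. Over time in Nos3-/- it was 1, then 0 with quantile normalisation, centring on the median, the groups' own arrays and the replicate block, 2 with the mean of probe sets, array weights and the highest SD, and 0 to 2 with single arrays left out. Over time in control it was 2, then 5 with the mean of probe sets and 4 with the highest SD. Elavl3 also passed there, falling, with array weights (-0.26, limma adjusted p = 0.0476) and with the replicate block (-0.28, limma adjusted p = 0.0423). For the difference between the genotypes it was 0, and 1 with the mean of probe sets, and 0 to 1 with single arrays left out. The Map2 change in Nos3-/- was -1.04 (adjusted p = 0.0611) with quantile normalisation and -1.09 (0.0551) in the replicate block, and the Nes difference at day 0 was -0.46 (0.0573) in that block. Leaving out the lower tertile of genes kept 6 of the 9, with the same counts.

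Directions turned with the probe set. The Sox1 difference between Nos3-/- and control at day 11 was -0.14, and 0.68 with the mean of its probe sets and 1.51 on 1438729_at. The Sox1 change over time was -0.17 in Nos3-/-, and 1.19 and 2.55 in the same settings. In control it was -0.06, and 0.55 and 1.16. The Pax6 change in control was -0.03, and 0.23 with the mean and 1.03 on 1419271_at. These follow from which probe set is read. Of 2344 alternative values of a gene or probe set, 12 were reversed, 56 lost and 21 gained a call, and 107 changed sign where neither value passed. No pair of genes passed with the mean of probe sets or without 2 arrays. With 4 Nos3-/- arrays the smallest p that rho can give is 0.0833, too large to pass. For r the lowest there was 0.0417 (Pax6 with Map2, exact permutation test, adjusted p = 0.818). Deviations of same-numbered arrays from their group means had a median r of 0.0019 over 39 pairs, and 14 pairs had r over 0.1. Arrays with different numbers were not compared, so this does not settle whether the numbers pair samples.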
